A study of Mus musculus with 4 samples.

Results

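Endothelial ETS transcription factors are described here through the accessible chromatin mapped at 7 mouse genes: Erg, Fli1, Ets1, Ets2, Elk3, Etv6 and Elf1. The genes were chosen as the ETS family members known in endothelium, and a region counted as theirs where a peak overlapped the RefSeq span of the gene or the 10 kb on either side of it. By that rule they held 199 of the 113056 merged regions of the genome and were 7 of 21887 protein-coding genes. A merged region is a stretch where peaks of any of the 4 libraries overlap by at least 1 bp.

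The libraries are ATAC-seq, an assay in which a transposase cuts and tags DNA that is not wrapped tightly in nucleosomes, so that peaks of tagged fragments mark accessible chromatin. They were made from mouse lung endothelial cells isolated by flow cytometry, 2 from Dnmt3a knockout cells (labelled ko, here KO1 and KO2) and 2 from wild-type cells (labelled wt, here WT1 and WT2). Dnmt3a encodes a DNA methyltransferase that places new methyl groups on cytosine, mostly at CpG dinucleotides. The labels give genotype, tissue and cell type, and nothing on strain, age, sex, treatment, the allele or any Cre driver, or whether the replicates come from different animals, so a spread between replicates may be technical. The comparison of KO with WT asks which accessible regions are gained or lost without Dnmt3a.

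ETS factors share a winged-helix DNA-binding domain that reads a GGAA core, which appears as TTCC on the opposite strand. ERG and FLI1 are closely related activators that keep up endothelial identity genes such as those of adherens junctions, while ETS1 and ETS2 are related activators that act downstream of Ras and MAP kinase signalling. ELK3 is a ternary complex factor that works with serum response factor and often represses, ETV6 is a repressor with a pointed domain that forms polymers, and ELF1 belongs to the ELF subfamily and acts in blood and vessel development.

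The sequences below, RefSeq promoters on GRCm38.p6 (mm10), are shown because they separate member starts that carried a peak in every list from one that carried none, and because their CpG content differs. Each runs from 250 bases before to 50 bases after the start, 5′ to 3′ on the gene's strand, and capitals mark each GGAA core or its reverse complement TTCC. Erg start 1 is chr16:95586544-95586843 on the minus strand, Erg start 3 is chr16:95459299-95459598 on the minus strand, Etv6 is chr6:134035450-134035749 on the plus strand and Elf1 start 1 is chr14:79480944-79481243 on the plus strand.
Erg start 1: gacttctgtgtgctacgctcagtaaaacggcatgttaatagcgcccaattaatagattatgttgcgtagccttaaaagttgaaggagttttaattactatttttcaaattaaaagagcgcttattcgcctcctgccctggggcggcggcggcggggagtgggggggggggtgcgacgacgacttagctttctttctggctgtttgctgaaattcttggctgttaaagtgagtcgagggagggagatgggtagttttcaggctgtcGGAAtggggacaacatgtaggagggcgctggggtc
Erg start 3: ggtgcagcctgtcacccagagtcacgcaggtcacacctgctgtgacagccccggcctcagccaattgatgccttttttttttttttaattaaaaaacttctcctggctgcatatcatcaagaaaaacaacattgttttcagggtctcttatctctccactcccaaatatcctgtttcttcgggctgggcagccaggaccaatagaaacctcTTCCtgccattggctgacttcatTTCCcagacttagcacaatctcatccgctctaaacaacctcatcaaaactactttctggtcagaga
Etv6 start 1: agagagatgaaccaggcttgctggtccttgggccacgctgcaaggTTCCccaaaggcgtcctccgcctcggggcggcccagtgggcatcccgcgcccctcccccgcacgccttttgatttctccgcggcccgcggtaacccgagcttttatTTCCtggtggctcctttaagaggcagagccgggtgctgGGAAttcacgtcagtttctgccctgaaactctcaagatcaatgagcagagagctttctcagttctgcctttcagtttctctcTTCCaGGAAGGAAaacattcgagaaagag
Elf1 start 1: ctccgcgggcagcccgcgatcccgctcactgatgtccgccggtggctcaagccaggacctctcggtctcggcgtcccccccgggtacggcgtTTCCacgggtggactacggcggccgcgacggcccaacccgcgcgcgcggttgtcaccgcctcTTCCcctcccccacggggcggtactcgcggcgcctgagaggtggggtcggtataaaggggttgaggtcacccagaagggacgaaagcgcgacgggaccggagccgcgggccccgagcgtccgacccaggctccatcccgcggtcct

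Erg has 3 starts in the promoter table, and the same one of them carried a peak in all 4 libraries. Start 1, at the gene's high-coordinate end, and start 2, at chr16:95530316-95530615, overlapped no peak of any list. Start 3, inside the gene, lay under a peak of 834 and 813 bp in KO1 and KO2 and of 902 and 831 bp in WT1 and WT2. Near start 1 the closest peak was 603 and 539 bp away in the KO lists and 539 and 514 bp away in the WT lists, and near start 2 it was 19137 and 4576 bp away in the KO lists and 4527 and 4561 bp away in the WT lists. Whether a peak overlapped a start did not differ between the lists at any of the 3.

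Start 3 holds 4 CpG dinucleotides in its 300 bases and start 1 holds 16. Among 32851 RefSeq promoter windows of the same length, the 14370 with a peak in all 4 lists had a median of 21 CpG and the 17004 with a peak in none had a median of 3. Of the windows called in all lists, 883 (6.14%) held 4 CpG or fewer, as Erg start 3 does. Of the windows called in none, 632 (3.72%) held 16 or more, as Erg start 1 does. Both Erg starts therefore lay in the small tails of their groups, on the CpG-poor side for the called start and the CpG-rich side for the uncalled one.

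The starts of the other members divided by CpG content as the promoter windows at large did. Etv6 (17 CpG), Ets2 (30 CpG, chr16:95702157-95702456), Elk3 (31 CpG, chr10:93311110-93311409) and Elf1 start 1 (43 CpG) each lay under a peak in all 4 lists. Elf1 start 2, at chr14:79515424-79515723, holds 3 CpG and overlapped no peak, the closest being 3059 to 3461 bp away. The promoter table has no entry for Fli1 or Ets1.

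In the region over the Elk3 start, chr10:93310749-93311913, peaks spanned 1082 bp in KO1 and 632 bp in KO2, and a total of 867 bp in WT1 and 670 bp in WT2. The total was thus larger in KO1 and WT1 than in KO2 and WT2. The WT1 peak over the start itself was 644 bp, below the 670 bp of WT2. At the Etv6 start the peak spanned 1404 and 1264 bp in the KO lists and 1268 and 1273 bp in the WT lists. The Elf1 start 1 region was the widest of all member regions, at 1817 and 1735 bp in the KO lists and 1774 and 1761 bp in the WT lists, and it also covers the start of Wbp4, a neighbouring gene. Of the genome's 32851 promoter windows, 51 carried peaks in both KO lists only and 134 in both WT lists only, and no member start was among them.

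Motif letters were searched in the member windows on both strands, and GGAA lies within the longer ETS motif CCGGAAGT. The GGAA core occurred in every member window, once in Erg start 1, Ets2 and Elf1 start 2, and 6 times in the Etv6 start, and 96.0% of all promoter windows hold it. That longer consensus was in no member window and in 3.89% of all windows. Erg start 3 holds 3 matches of CCAAT, a motif in 37.4% of all windows, and 1 of GATAAG, the letters read by GATA factors, which are in 7.44%. Elf1 start 2 holds the member windows' single match of TGANTCA, the AP-1 motif, found in 7.81%. The GC box GGGCGG (35.7% of windows) was in both called and uncalled member windows, and TATAAA (13.6%) was in Erg start 2 and both Elf1 starts.

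**Figure D1:**
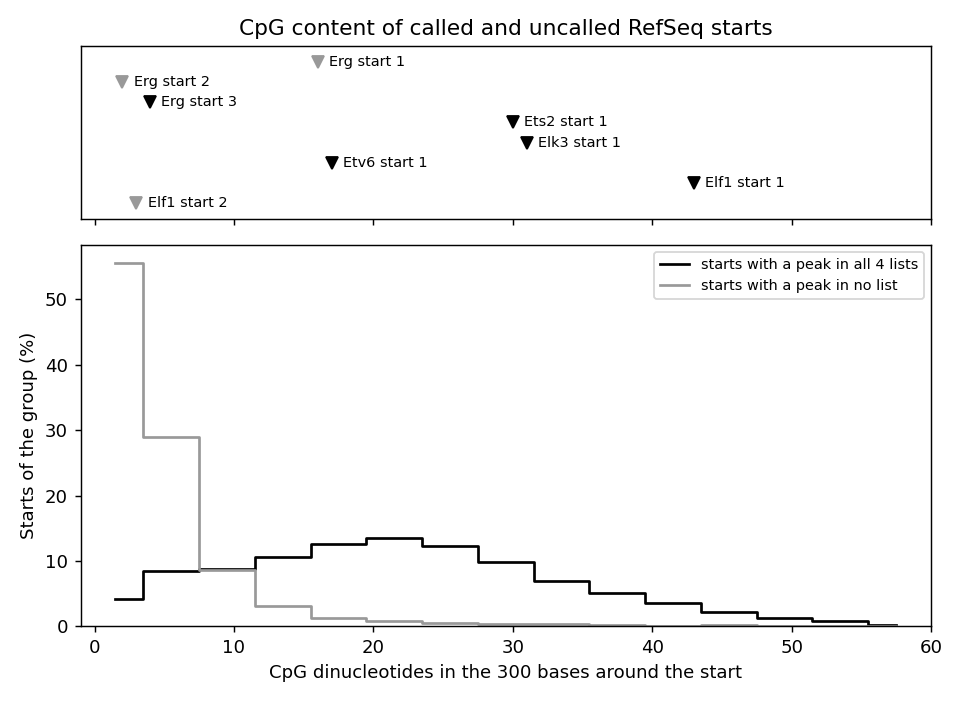
The lower panel plots the number of CpG dinucleotides in the 300 bases around each RefSeq start (x axis) against the percent of starts (y axis), for starts with a peak in all 4 lists (black line) and in no list (grey line); the upper panel places the 8 member starts on the same x axis, with black triangles for a peak in all lists and grey for none, and their height has no meaning. Erg start 3, with 4 CpG, is black at the far left, and Erg start 1, with 16 CpG, is grey to its right.

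As a check of the cell type, all 5 endothelial marker genes with a promoter entry (Kdr, Tek, Tie1, Cldn5 and Emcn) had a start called in every list. No start of the 5 epithelial or the 5 leukocyte markers was called in every list, and Lyz2 alone among them was called in some lists. Of 3 fibroblast and mural markers, the start of Cspg4 was called in every list. By share of the gene with 10 kb either side covered by peaks, the medians over 7 markers each were 8.52% for endothelial and 0.274% for leukocyte genes. They were 3.4% for epithelial genes and 4.4% for fibroblast and mural genes. By that measure the epithelial Ager (13.1%) and the leukocyte Cd68 (12.6%) lay near the endothelial Pecam1 (13.0%), so single markers did not all separate. The 4 lists held 85091 and 100879 peaks for KO and 101442 and 97627 for WT, with median widths of 467, 407, 431 and 443 bp in the same order. KO1 was thus the shortest list and had the highest median width. Over the 75395 regions called in all 4 lists, the medians were 505 and 478 bp in KO and 510 and 514 bp in WT. No scores or reads come with the lists, so read depth is unknown and absence of a peak does not show closed chromatin. In sorted cells measured in bulk, a site open in fewer cells and a site less accessible in each cell cannot be told apart.

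On GRCm38.p6 the gene spans are chr16:95359169-95586600 for Erg, chr9:32422204-32543432 for Fli1, chr9:32636241-32757820 for Ets1, chr16:95702407-95721049 for Ets2, chr10:93247415-93311159 for Elk3, chr6:134035700-134270158 for Etv6 and chr14:79481174-79582491 for Elf1. The members were covered by peaks more densely than most genes. Elk3 had the highest share of its interval covered, 14.5% on average over the lists and above 98.4% of protein-coding genes. Ets1 followed at 8.70%, Etv6 at 8.06%, Elf1 at 7.65%, Fli1 at 7.59% and Ets2 at 7.46%. Erg was lowest at 5.18%. The median over the members was 7.65%, against 3.31% over all protein-coding genes, and it was 1.77 against 0.672 regions per 10 kb.

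Erg, Ets1, Elk3 and Elf1 had more sequence covered in both WT lists than in both KO lists. For Erg the peaks covered 11658 and 12397 bp in KO1 and KO2 and 14242 and 12950 bp in WT1 and WT2. For Ets1 they covered 11733 and 12051 bp in KO and 12824 and 12690 bp in WT. For Elk3 they covered 11228 and 12220 bp in KO and 12594 and 12389 bp in WT. For Elf1 the order was the same with a small gap, 9223 and 9238 bp in KO against 9354 and 9322 bp in WT.

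These 4 of 7 members stand against 34.6% of 17673 protein-coding genes with a peak whose covered sequence was likewise higher in both WT lists. In 5.58% of those genes it was higher in both KO lists, which no member showed with all peaks counted. The KO to WT ratio of mean covered sequence was 0.885 for Erg, 0.932 for Ets1, 0.939 for Elk3 and 0.988 for Elf1. With 2 libraries against 2 the two-sided exact permutation test cannot go below p = 0.33, the value that each of the 4 genes gave, and adjusted over the 7 members it was 0.583. With only the peaks at or over their list's median width, the groups overlapped at all 4 genes. The difference turned to 314 bp higher in KO at Elk3 and 210.5 bp higher in KO at Elf1. With those peaks Fli1 was 1167.5 bp higher in KO, with both KO lists above both WT lists. The groups also overlapped at Elk3 without the flank and with 50 kb, and at Elf1 with 50 kb and with lists of equal length. Etv6 took the same order as the 4 genes with 50 kb, wide peaks or equal lists. These orders at Fli1 and Etv6 gave the smallest p that the test can reach. No share over all genes is given for the alternative settings, so whether these orders are common there was not tested. Without KO1 the difference went from -767.5 to -271.5 bp at Elk3, and without WT1 it went from -1568.5 to -922.5 bp at Erg. Without KO2 it was -1263.5 bp at Elk3. The whole KO1 list covers 46.6 Mb and the KO2 list 47.8 Mb, against 51.1 and 50.5 Mb in WT1 and WT2, so the lists as a whole run the same way; the part of this in the members' order was not tested.

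Fli1 differed from the other members in the spread between its KO libraries. Its peaks covered 8168 bp in KO1 and 13687 bp in KO2, with WT1 at 10544 bp and WT2 at 10455 bp in between. The mean was 10927.5 ± 3900 bp in KO and 10499.5 ± 62.9 bp in WT (SD, n = 2 each), and the groups overlapped (exact permutation p = 1). The spread thus lay almost wholly between KO1 and KO2. For Ets2 the values were 2936 and 2631 bp in KO and 2873 and 3091 bp in WT. For Etv6 they were 18778 and 20994 bp in KO and 21243 and 20979 bp in WT, and for both genes the groups overlapped (exact permutation p = 0.667). The Etv6 difference of -1225 bp was -117 bp without KO1 and -2333 bp without KO2.

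Summed over the 7 genes, peaks covered 78471 ± 6710 bp in KO and 82775 ± 1270 bp in WT (mean ± SD, n = 2 each), a difference of -4304 bp with exact permutation p = 0.667. KO1 and KO2 held 123 and 182 member peaks, and WT1 and WT2 held 175 and 156, or 152.5 ± 41.7 against 165.5 ± 13.4 (SD, n = 2 each), with exact permutation p = 1. Peak numbers overlapped between the groups at each of the 7 genes. Of protein-coding genes, 8.11% had more peaks in both WT lists and 2.52% had more in both KO lists. With lists of equal length, both WT lists held more peaks than both KO lists at Erg (difference -2) and Ets1 (-2.5). No share over all genes is given for that setting. Without KO1 the difference in covered sequence turned to 443 bp higher in KO, and as a share of each list's own total it was 0.158% and 0.174% in KO against 0.164% and 0.162% in WT, which overlap.

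**Figure D2:**
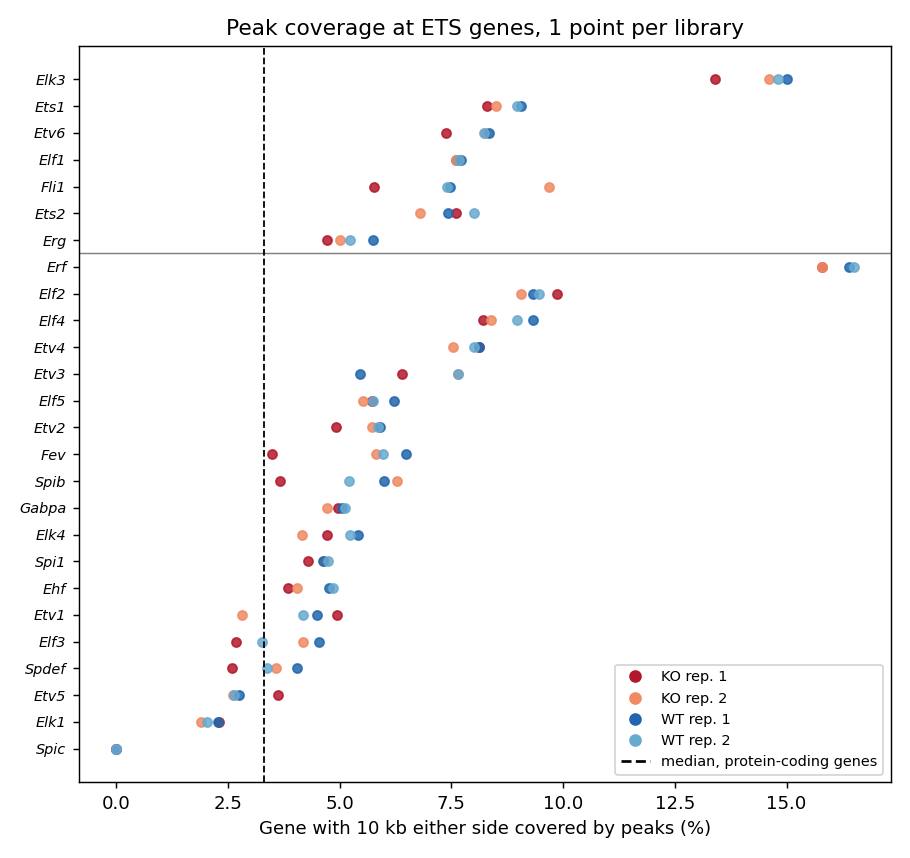
Percent of the gene with 10 kb either side covered by peaks (x axis) in each of the 4 libraries (1 point each), for the 7 members above the grey line and the 19 other ETS genes below it (y axis), with the median over protein-coding genes (3.31%) as a dashed line. Among the members Elk3 lies highest and Erg lowest in every library, and at Fli1 the KO1 and KO2 points lie on either side of the WT points.

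Of the 199 member regions, 114 were called in all 4 lists (57.3%), against a genome-wide 66.7%. The share was 80.0% of 5 regions at Ets2, 75.0% of 20 at Elf1, 64.4% of 45 at Etv6, 64.3% of 28 at Ets1, 62.1% of 29 at Erg and 56.2% of 32 at Elk3. It was lowest at Fli1, at 30.0% of 40 regions. Of the other member regions, 25 (12.6%) were in 3 lists, against 11.1% of all regions, 15 (7.54%) were in 1 KO and 1 WT list, against 4.72%, and 39 (19.6%) were in a single list, against 13.4%.

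Genotype-patterned regions, called in both lists of one genotype and neither of the other, were few. Of the 199, 1 (0.503%) had the KO pattern, against 1.12% of all regions, and 5 (2.51%) had the WT pattern, against 3.04%. Both shares lie near or below the genome's. With a library left out the pattern asks for fewer lists, and the counts rose at the members and in the genome. Without KO1 the KO pattern was met by 20 member regions (10.2%), against 5.8% of all regions, and by 3 (1.67%, 1.61% and 1.55%) without KO2, WT1 or WT2, against 3.19%, 2.15% and 1.89%. The WT pattern was met by 25 (13.9%) without KO2, against 11.1% of all, by 18 (9.28%) without WT2, against 7.58%, and by 10 (5.38%) without WT1, against 5.84%. Without KO1 the WT pattern was met by 6 (3.05%), against 4.95%. With all libraries kept, Elk3, Elf1 and Ets2 had no region of either pattern. With a library left out each of them had some. For example, without WT2 the WT pattern was met by 3 regions at Elk3, 2 at Elf1 and 1 at Ets2.

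The KO-pattern region lies at chr9:32413847-32414228 in the flank of Fli1, 7976 bp from the gene's low-coordinate end, with peaks of 228 bp in KO1 and 382 bp in KO2. A WT peak lies 224 bp away, so this region is a short step from sequence called in WT as well. Fli1 also holds a WT-pattern region, at chr9:32470517-32470770 inside the gene, with peaks of 223 and 254 bp in WT1 and WT2. There the closest KO peak is 3195 bp away, the most isolated of the 6 patterned regions.

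The WT-pattern region of Erg is chr16:95381002-95381284, with peaks of 245 and 250 bp and no KO peak within 1020 bp. That of Ets1 is chr9:32678231-32678524, with peaks of 269 and 283 bp and no KO peak within 1206 bp. Etv6 has 2, chr6:134088904-134089272 with peaks of 265 and 366 bp, and chr6:134198920-134199290 with peaks of 315 and 265 bp, and their closest KO peaks are 262 and 624 bp away. Each of these lies inside its gene, and the gene table used here does not say whether in an exon or an intron. All 6 patterned regions were narrow, with mean widths of 238 to 316 bp, while the 114 regions called in all lists had a median of 560 bp and a range of 244 to 1770 bp. Regions called in a single list had a median of 231 bp, and the narrowest peak of each list was 201 bp.

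**Figure D3:**
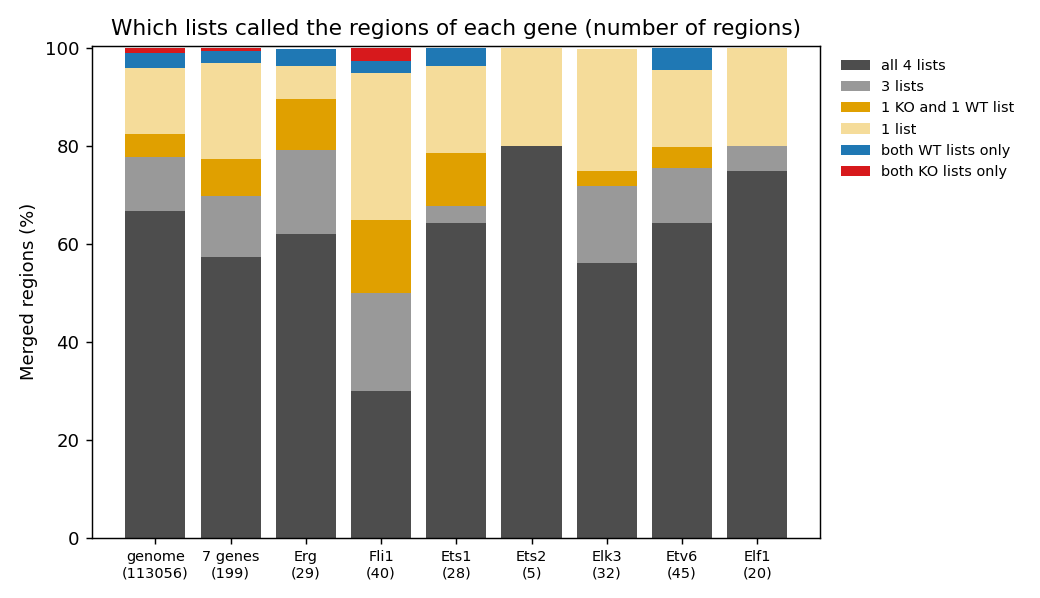
Share of merged regions (y axis, percent) by the lists that called them, for the genome, the 7 genes together and each gene (x axis, number of regions in parentheses); from the bottom, segments are regions in all 4 lists, in 3, in 1 KO and 1 WT list, in a single list, in both WT lists only and in both KO lists only. Fli1 has the shortest segment for all 4 lists (30.0%), and each segment that follows genotype is 4.44% or less.

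Many member regions were set apart by a single library. Of the 199 member regions, 20 (10.1%) were called in every list but KO1, against 7.59% of all regions. Another 19 (9.55%) were called in KO2 alone, against 4.56%, and 13 (6.53%) in WT1 alone, against 4.34%. WT2 alone called 5 (2.51%), against 2.55%, and KO1 alone called 2 of the 199, against 1.92%. KO1 called 61.8% of member regions and KO2 86.4%, with WT1 at 82.9% and WT2 at 76.4%, and the genome-wide shares were 74.3%, 85.2%, 87.1% and 84.4%. The members thus differed more between the 2 KO libraries than between the genotypes, and so did all regions of the genome.

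Fli1 had the widest gap between KO1 and KO2. KO1 called 15 of its 40 regions, KO2 34, WT1 26 and WT2 25. Of the 40, 6 were missing from KO1 alone, and 7 were present in KO2 alone. Without KO1, 45.0% of its regions were called in the other 3 lists, against 75.7% genome-wide, and without KO2 36.4% were, against 71.8%. Among 748 protein-coding genes with at least 20 regions, whose median share called in all lists was 65.0%, Fli1 had the second lowest share, after Qk with 4 of 21 regions.

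The unshared regions of Fli1 lay mostly at low coordinates. In the 60.6 kb of the gene at the low-coordinate end, 2 of 17 regions were called in all lists (11.8%), and in the other 60.6 kb 8 of 17 were (47.1%). The widest Fli1 region, chr9:32541256-32542438, lies 994 bp from the high-coordinate end and spanned 1117 and 682 bp in KO and 707 and 738 bp in WT. The region at that end itself, chr9:32543368-32543601, was narrow: KO1 had no peak there, KO2 had 206 bp, and WT1 and WT2 had 201 and 224 bp. A second wide region, chr9:32506048-32506890, was 826 and 797 bp in KO and 808 and 788 bp in WT.

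Elk3 showed a split of the same form, with 5 of 13 regions called in all lists in the 31.9 kb at low coordinates (38.5%) and 9 of 11 in the 31.9 kb at high coordinates, where its start lies (81.8%). The neighbouring gene Cdk17, chr10:93160876-93251094, overlaps the low-coordinate end of Elk3, so some regions there cannot be assigned to Elk3 alone. For Erg the shares were 14 of 23 and 3 of 5 regions, as the high-coordinate part of the gene held few regions of any kind. That stretch includes the longest run without a peak at any member, 54.9 kb from chr16:95480214 to chr16:95535141, which contains Erg start 2. The longest runs at the other members were 7.52 to 15.1 kb.

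**Figure D4:**
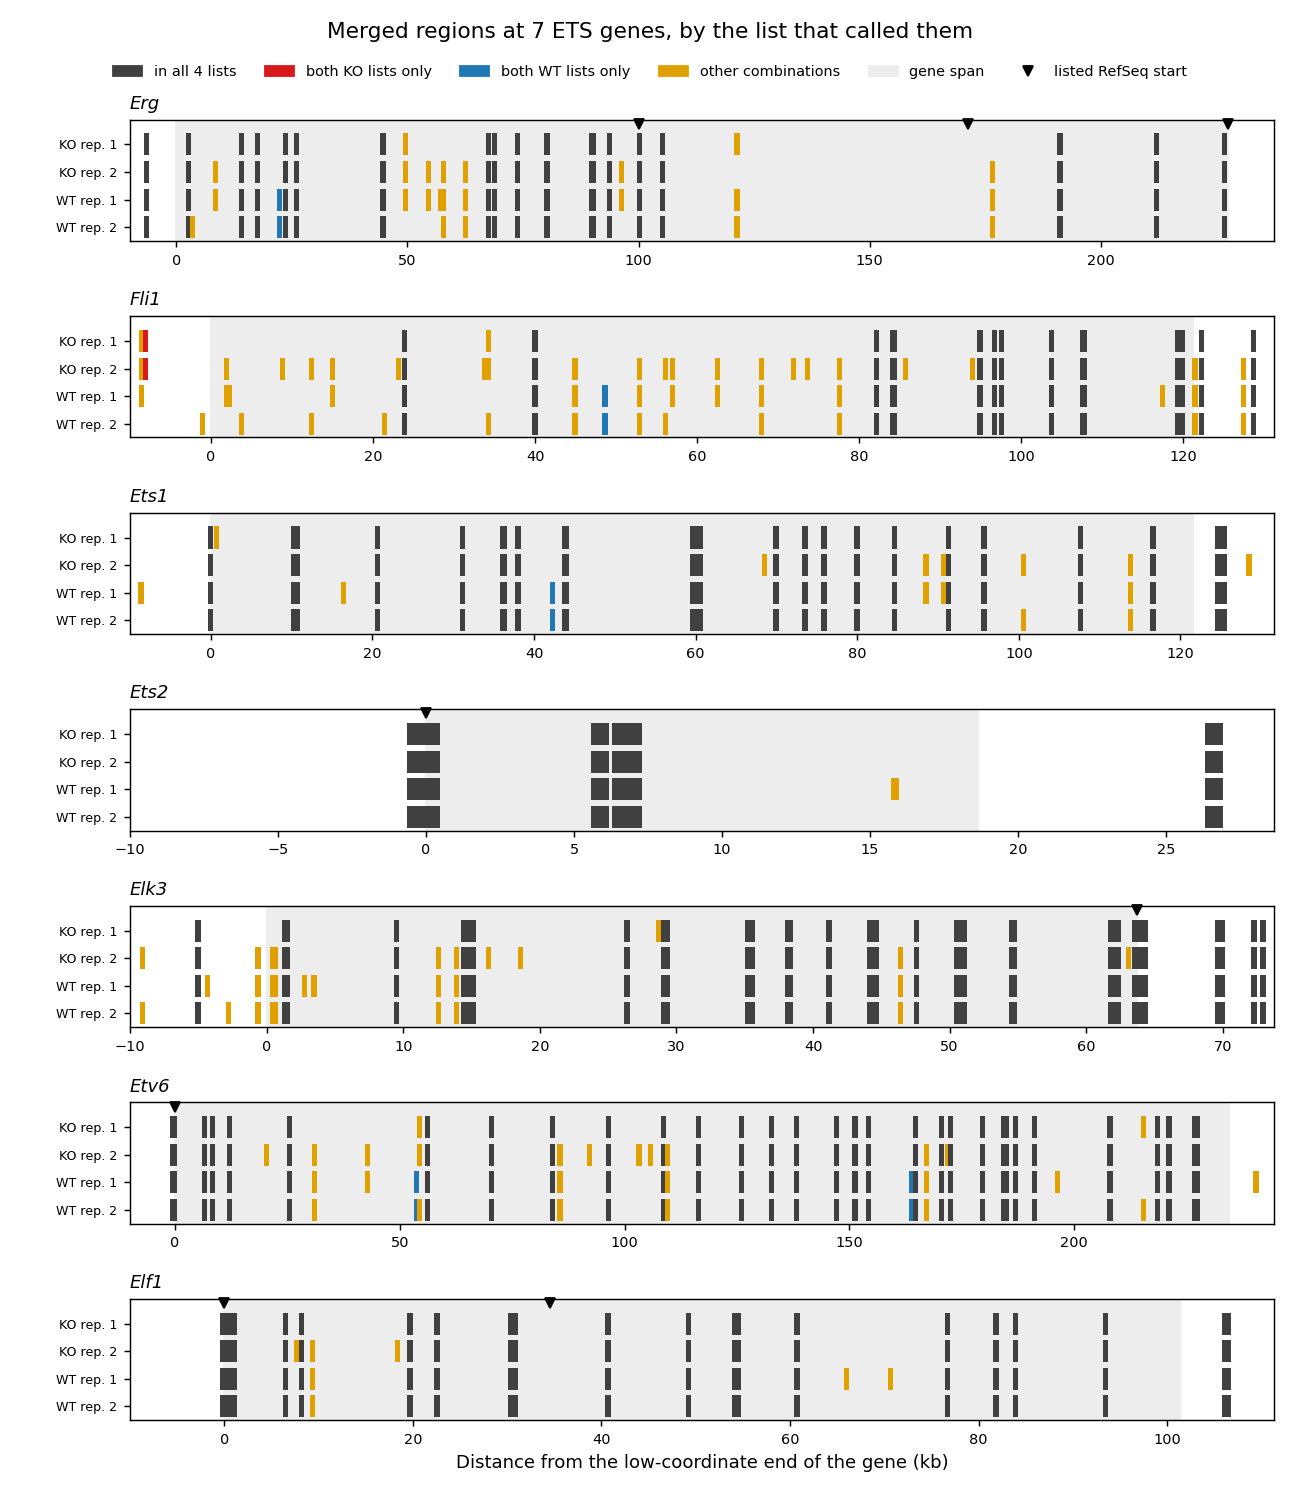
Map of the merged regions along the 7 member genes, each drawn from 10 kb before its low-coordinate end to 10 kb after its high-coordinate end (x axis, kb from the low-coordinate end), with a row for each of the 4 libraries, grey shading for the gene span and triangles for listed RefSeq starts; a bar covers the extent of the merged region wherever that library has a peak in it, narrow regions are drawn at a minimum width, and colour gives the lists that share it. The KO1 row is thinnest at Fli1, and the empty stretch of 54.9 kb is seen in the high-coordinate part of Erg.

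The widest regions of each member were called in all 4 lists, and their widths varied between libraries to different degrees. The widest at Erg, chr16:95448523-95449879, spanned 1357 and 1265 bp in KO and 1314 and 1300 bp in WT, inside the gene. At Ets1 it was chr9:32760566-32762015, 2746 bp outside the gene, at 1411 and 1063 bp in KO and 1272 and 1277 bp in WT. At Ets2 it was the region over the start, chr16:95701756-95702882, at 1081 and 1065 bp in KO and 1104 and 1114 bp in WT. At Erg and Ets1 the groups overlapped, and at Ets2 both WT values were slightly above both KO values. At Etv6 it was chr6:134261842-134263597, at 1539 and 1124 bp in KO and 1660 and 1735 bp in WT, with both WT values above both KO values. At Elk3 it was chr10:93261646-93262740, at 895 and 921 bp in KO and 1000 and 991 bp in WT, in the same order. The next widest regions varied at least as much at Erg, Ets1 and Ets2. At Erg, chr16:95438753-95440092 spanned 1340 and 947 bp in KO and 1177 and 942 bp in WT, and at Ets1, chr9:32695604-32697101 spanned 1461 and 1039 bp in KO and 1090 and 1282 bp in WT. At Ets2, chr16:95708689-95709693 spanned 900 and 585 bp in KO and 372 and 772 bp in WT. KO1 had the largest width, summed over a list's peaks, in each of these 3 regions, and the groups overlapped in that sum. At Elk3, chr10:93297700-93298653 was more even, at 944 and 881 bp in KO and 861 and 881 bp in WT. At Elf1, chr14:79586987-79587984 lies in the flank next to Sugt1, at 998 and 888 bp in KO and 909 and 919 bp in WT. The 13 member regions within 1 kb of a gene end had a median width of 812 bp where called in all lists, and those elsewhere inside the genes had 545 bp.

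Width, the only measurement in the lists, was compared for the 75395 regions called in all 4. With limma on quantile-normalised log2 width, 0 of the 114 shared member regions passed an adjusted p of 0.05, and 0.0% of all shared regions did. The lowest adjusted p was 0.709 among members and 0.537 over all regions. At an unadjusted p under 0.05 limma gave 2 of 114 member regions, against 6.03% of all. The count was 11 of 134 (8.21%) without KO1, against 10.8% of all, and 21 of 115 (18.3%) without KO2, against 18.3%. With all libraries, the 2 were Etv6 regions wider in KO: chr6:134167881-134168448, with 527 and 479 bp in KO and 427 and 410 bp in WT (log2 difference 0.33 ± 0.0847 SE), and chr6:134186376-134186697, with 284 and 322 bp against 263 and 287 bp (log2 difference 0.31 ± 0.101 SE). The second has overlapping groups in raw width. The median log2 difference over the 114 regions was 0.03, against 0.01 over all shared regions.

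In raw widths, 29 member regions (25.4%) were wider in both WT lists than in both KO lists, against 27.1% of all shared regions, and 6 (5.26%) were wider in both KO lists, against 7.37%. Both member shares are near the genome's. The 29 included 8 at Etv6, 7 of 18 at Ets1 and 3 of 4 at Ets2. The 6 included 3 at Etv6, 2 at Ets1 and 1 at Elk3. An example wider in KO is chr6:134151570-134152807 in Etv6, at 1174 and 1159 bp in KO and 1101 and 1103 bp in WT.

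Widths here are summed over a list's peaks in a region, without the gaps between them. By this sum KO1 was widest in 50 of the 114 shared member regions (43.9%), against 33.6% of all shared regions. KO2 was narrowest in 46 (40.4%), against 41.8%. KO1 held 123 peaks in 123 member regions, against 182 in 172 for KO2, 175 in 165 for WT1 and 156 in 152 for WT2. KO1 was widest in 8 of 12 shared regions at Fli1 and in 12 of 18 at Elk3. In the Elf1 region chr14:79535049-79535953 KO1 spanned 905 bp, while KO2, WT1 and WT2 spanned 495, 519 and 537 bp. KO1 was also the narrowest in 37 of the 114 (32.5%), against 34.7% of all shared regions. Its median width over the 12 shared Fli1 regions was 607 bp, below 613.5 bp in KO2, 667 bp in WT1 and 648 bp in WT2, and over the 18 at Elk3 it was 587 bp, above 524.5, 571.5 and 552 bp. Whether its peak width or list length plays a part in the members' differences was not tested.

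**Figure D5:**
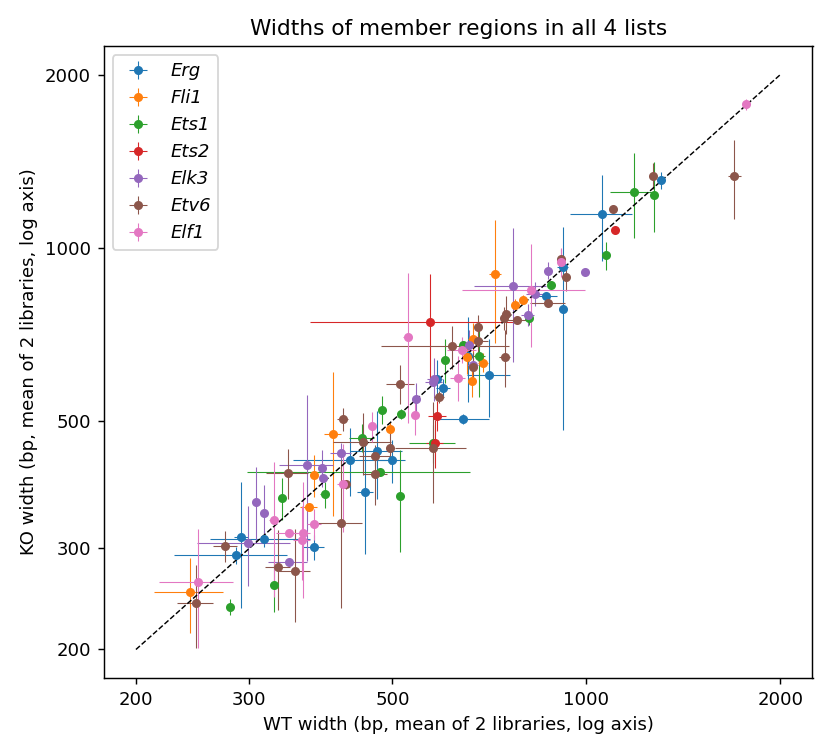
Mean width in WT (x axis, bp, log scale) against mean width in KO (y axis, bp, log scale) at the 114 member regions called in all 4 lists, coloured by gene. Each width is summed over a list's peaks in the region. Lines through a point span the 2 libraries of each genotype, and the dashed line marks equal widths. The points follow the dashed line from about 244 to 1770 bp, and 0 of 114 passed the adjusted threshold.

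The other 19 ETS genes of the mouse gave a background within the family. They held 100 regions, of which 76 (76.0%) were called in all lists, none had the KO pattern and 3 had the WT pattern. The 3 were in the flank of Fev (chr1:74893448-74893724, 233 and 201 bp in WT), inside Elf4 (chrX:48453068-48453335, 241 and 226 bp) and inside Ehf (chr2:103297585-103297912, 287 and 327 bp). The median share of the interval covered was 4.97% over these genes against 7.65% over the members, and the median over 7 endothelial markers was 8.52%. Erf, a repressor of the family, had the highest at 16.1%, followed by Elf2 at 9.43% and Elf4 at 8.72%. Spic, a macrophage factor, had no peak, and Elk1 (2.13%) and Etv5 (2.91%) were the next lowest. By this measure the genes nearest to the members' median among the other ETS genes and the cell type markers were Etv4 at 7.95%, the epithelial marker Sftpc at 8.42% and the mural marker Cspg4 at 6.85%.

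The members form 2 neighbouring pairs: Fli1 and Ets1 lie 92.8 kb apart on chromosome 9, and Erg and Ets2 lie 116.0 kb apart on chromosome 16. Within the first pair the shares called in all lists were 30.0% and 64.3%, and KO1 alone was missing from 6 regions at Fli1 and 1 at Ets1. Just outside the 10 kb limit, the nearest uncounted regions lay 444 bp (Etv6, in KO2 alone) to 13373 bp (Elf1, in all lists) beyond it. The one next to Erg's high-coordinate end, 5348 bp beyond the limit, was called in both KO lists and in neither WT list. Its peaks were 201 bp each, the smallest width in every list. Just inside the limit, the KO-pattern region of Fli1 lay 7976 bp from the gene.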

How the data were processed

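ATAC-seq peak lists of 2 KO and 2 WT mouse libraries were used, grouped by the labels. Bowtie2, cutadapt and Picard are the tools, and mm10 the build, in the submitters' processing notes, with no versions. The peak caller, its threshold, read filters and any shift for the transposase are not given in the sources used here. Per the file headers, each deposited list gives chromosome, start, end, width and strand, so the authors' only measurement is peak width in bp, with no score or count, and read depth is unknown. Other measures by score that the plan foresaw were replaced by width.

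Only the autosomes and both sex chromosomes entered, which dropped 92 and 134 KO peaks and 134 and 124 WT peaks, and overlapping peaks (1 bp) were joined. Widths were summed where a list has several peaks in a region. Gene spans came from RefSeq GRCm38.p6, the mm10 assembly, by symbol, and all 7 members, 19 other ETS genes and 28 markers matched. Of the members, 5 have promoter entries. Library values were compared by two-sided exact permutation tests, and widths by limma on quantile-normalised log2 width with Benjamini-Hochberg adjustment. Merging and the width fit were tested on simulated data. Same-numbered libraries did not deviate together (correlation -0.0449 over 75395 regions), so numbers were not used as pairs.

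The text names all 7 members with every genotype-patterned region, the region over each listed start that carried a peak, and the 2 widest. Of other ETS genes it names those with a patterned region and the 3 with the highest and 3 with the lowest coverage. The 3 genes nearest in coverage to the members' median are named too. Qk, the stretches of Fli1 and Elk3, and the width examples were chosen after their values were seen. The members and lists were chosen with earlier results of these data known. Alternatives were the overlap rule, a 500 bp gap, no flank or 50 kb, wide peaks, equal list lengths, shares of the list, other width measures, a replicate block and leaving out each library. The software was limma 3.58.1 in R 4.3.3, with Python 3.11.15, scipy 1.17.1, pandas 2.3.3, numpy 2.4.6 and matplotlib 3.10.9.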

Additional observations from a re-analysis of the deposited data

How the results depend on the processing

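List membership moved with the settings. The KO-pattern count of 1 was 0 when absence asked for no peak within 500 bp, 0 without the flank, 2 with 50 kb, and 3 to 20 with a library left out (20 without KO1). The WT-pattern count of 5 was 0 with peaks at or over the median width only, and 7 to 25 with a library left out (25 without KO2, 19 without WT2 and 10 without WT1), with regions merged anew. Regions in all lists fell from 114 to 62 with wide peaks only. The peak difference of -13.0 became 0.5 with wide peaks and ran from -42.5 to 16.5 with a library left out, the last without KO1. The covered difference of -4304 bp became 35 bp with wide peaks and 0.00315 as a percent of the list. With a library left out it ran from -9051 to 443 bp, the last without KO1. It was -5396.5 bp with 50 kb and -2357.5 bp with equal lists, and there both WT lists lay above both KO lists. Per gene, covered bp turned to 199 at Ets2 with 50 kb, 314 at Elk3 and 210.5 at Elf1 with wide peaks. At Fli1 it rose from 428 to 1167.5 with wide peaks, with both KO lists above both WT lists. Peak differences turned to 2 at Fli1 and 0.5 at Ets1 and Elk3 with wide peaks, and to 3.5 at Fli1 with equal lists. With equal lists they were -2 at Erg and -2.5 at Ets1, with both WT lists above both KO lists. With a library left out they ran from -10.5 to 8.5 at Fli1, -5.5 to 3.5 at Ets1, -8 to 2 at Elk3, -7.5 to 4.5 at Etv6 and -2 to 1 at Elf1, with the highest without KO1, and covered bp at Fli1 ran from -2331.5 without KO2 to 3187.5 without KO1. The causes were not tested. For the group orders in these alternative settings, no share over all genes is given. Limma called 0 member widths under every alternative run, and 0 with the replicate block, with 2 to 21 of them at an unadjusted p under 0.05 (21 without KO2). Of the 6 patterned regions, 4 kept their pattern with the 500 bp gap, 5 without the flank, 2 with equal lists and 0 with wide peaks. Unknown depth limits every absence.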
